A study of Homo sapiens and Homo sapiens
Mus with 12 samples.

Results

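The 9 genes described here encode enzymes of the mitochondrial citric acid cycle: CS, IDH2, IDH3A, IDH3B, OGDH, SUCLA2, SUCLG1, FH and MDH2. They were taken by name, and all 9 were found among the 21466 genes with values in the table of cultured cells and among the 26813 human genes in the table of tumors. UM-UC-3 is an established human bladder cancer line, and in the study it carried a lentiviral vector with GFP and either a non-silencing hairpin RNA (shCtrl) or 1 of 2 hairpins against CDH11 mRNA (sh#1 or sh#2), so that shCtrl cells also carried a vector, GFP and a hairpin. Transduced cells were sorted for GFP and used as pools. RNA was sequenced from 9 cultures, 3 of each line, that had been precultured for 24 hours, and from 15 subcutaneous tumors, 5 of each line, that had grown for 4 weeks in nude mice that were 5 weeks old at inoculation. The labels do not say whether the 3 cultures of a line were grown separately, so the tests on cultured cells measure the spread between these samples, which may be technical. Both hairpins together are called KD, and all comparisons with shCtrl in a system share the same shCtrl libraries.

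CDH11 is a cadherin of mesenchymal cells. The citric acid cycle oxidizes the acetyl group of acetyl-CoA to carbon dioxide and passes the electrons to the respiratory chain as NADH and FADH2. Citrate synthase (CS) joins acetyl-CoA to oxaloacetate, and the isocitrate made from citrate is oxidized by the NAD-dependent enzyme IDH3 or by the NADP-dependent enzyme IDH2. Oxoglutarate dehydrogenase (OGDH) and succinate-CoA ligase (SUCLG1 with SUCLA2 or SUCLG2) carry the carbon on to succinate, and succinate dehydrogenase, fumarase (FH) and malate dehydrogenase (MDH2) return it to oxaloacetate. In tumor cells the cycle also supplies citrate for lipid synthesis and is refilled from glutamine and pyruvate.

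The cultured libraries held 2273182 to 2777019 counts and the tumor libraries 414849 to 1248977 human counts. The 9 enzymes together took up 0.0736 to 0.0953% of the counts in cultured libraries and 0.0689 to 0.0934% in tumors. CDH11 itself gave 2, 4 and 4 counts in shCtrl cultures, 0, 0 and 1 with sh#1 and 1, 2 and 0 with sh#2, which was too few to test. For cultured KD cells the study itself reported significantly less CDH11 mRNA and protein than in shCtrl. In tumors CDH11 was lower with sh#1 (log2 fold change -1.67, q = 0.026), while both hairpins together (-1.13, q = 0.112) and sh#2 alone (-0.73, q = 0.347) did not pass the threshold. Of 6 epithelial markers EPCAM and CDH1 were at 0 in every cultured library, and KRT8 and KRT18 were detected, at group means of 120 to 131 and 130.5 to 189 TMM-scaled CPM. KRT7 had 5 to 14 counts a library and KRT19 had 0 to 3. KRT18 rose with sh#1 (log2 fold change 0.54, q = 2.68e-07). The 7 urothelial markers, with UPK1B and UPK3A at 0, summed to 3.93 to 4.52 CPM in shCtrl cultures, 2.13 to 5.76 with sh#1 and 11.7 to 12.0 with sh#2, where UPK1A had 16 to 20 counts against 0 to 5 in shCtrl. The 4 mesenchymal markers summed to 2465 to 2636 CPM in shCtrl, 2411 to 2641 with sh#1 and 3659 to 4012 with sh#2. Most of that sum was VIM, which rose with sh#2 (0.87), while CDH2 (-0.58) and FN1 (-1.53) fell with sh#1. The part of these differences in the results below was not tested. Tumor 1 of sh#1 stood apart with the lowest human total, and mouse genes took 30.0% of its counts against 10.4 to 18.8% in the other 14 tumors. By the deposited barcode list the tumors of each line were in a library mix of their own, so mix and line cannot be told apart.

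On hg38 (GENCODE), CS lies at chr12:56271699-56300391 (minus strand), IDH2 at chr15:90083045-90102477 (minus), IDH3A at chr15:78131498-78171945 (plus), IDH3B at chr20:2658395-2664219 (minus), OGDH at chr7:44606572-44709066 (plus), SUCLA2 at chr13:47745736-48037968 (minus), SUCLG1 at chr2:84423528-84460045 (minus), FH at chr1:241497511-241519799 (minus) and MDH2 at chr7:76048051-76067508 (plus).

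Promoter windows, from 250 bases before to 50 bases after the start of transcription in RefSeq (GRCh38.p14), were at hand for 8 of the 9 genes and not for OGDH. The window of IDH2 lay 1847 bases inside the gene from the canonical start in GENCODE and is not shown. The windows of IDH3A, IDH3B and MDH2 are printed because IDH3A and IDH3B encode partners in 1 enzyme, and because MDH2 and IDH3B had the lowest p-values of the 9 in KD cells. Capitals mark matches, on either strand, to TGCGCA (the half-site of the respiratory factor NRF1), CCGGAAG (the ETS motif) or ACGTG (the core of the hypoxia response element). The window of IDH3A is chr15:78149112-78149411 (plus strand), that of IDH3B is chr20:2664167-2664466 (minus strand) and that of MDH2 is chr7:76047856-76048155 (plus strand).
IDH3A: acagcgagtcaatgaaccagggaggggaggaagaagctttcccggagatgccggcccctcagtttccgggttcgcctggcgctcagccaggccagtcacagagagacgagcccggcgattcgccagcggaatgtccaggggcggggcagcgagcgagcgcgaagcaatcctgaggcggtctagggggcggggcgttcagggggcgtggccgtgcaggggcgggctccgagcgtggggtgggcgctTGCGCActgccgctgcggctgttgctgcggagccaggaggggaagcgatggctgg
IDH3B: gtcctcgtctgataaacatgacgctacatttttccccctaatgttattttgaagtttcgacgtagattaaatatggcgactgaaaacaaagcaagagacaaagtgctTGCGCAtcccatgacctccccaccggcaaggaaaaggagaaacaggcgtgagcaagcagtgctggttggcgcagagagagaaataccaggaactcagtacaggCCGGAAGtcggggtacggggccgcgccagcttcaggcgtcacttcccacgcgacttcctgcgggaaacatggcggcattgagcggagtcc
MDH2: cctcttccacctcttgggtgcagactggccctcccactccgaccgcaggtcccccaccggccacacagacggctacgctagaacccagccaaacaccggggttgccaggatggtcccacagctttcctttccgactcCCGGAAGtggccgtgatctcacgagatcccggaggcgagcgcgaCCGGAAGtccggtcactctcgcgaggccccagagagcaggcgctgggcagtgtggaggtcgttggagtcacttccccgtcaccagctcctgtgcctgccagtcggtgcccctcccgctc
TGCGCA was found in 2 of the 8 windows (IDH3A and IDH3B) and in 8.2% of all 35116 windows of this length. CCGGAAG was found in 2 of the 8 (IDH3B and MDH2) against 10.3% of all windows, and ACGTG in 0 of the 8 against 21.4%. The 8 include the window of IDH2, which lay inside the gene and held none of these motifs. These are matches of letters only, and no binding was measured.

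In cultured cells, KD was compared with shCtrl to ask whether the enzymes changed with both hairpins taken as a single group. The comparison does not test whether the hairpins acted alike. None of the 9 passed the threshold (edgeR quasi-likelihood test, q under 0.05), where 17.4% of the 9859 genes tested did, and 2 had an unadjusted p under 0.05, as had 31.8% of all genes. DESeq2 also called 0 of the 9. The log2 fold changes were positive for 7 and negative for 2, with a median of 0.19 against 0.00 over all genes tested. Normalized levels are given below as CPM (the share of a library's counts) after scaling by the trimmed mean of M values (TMM CPM). IDH3B, the beta subunit of IDH3, was at 112, 109.9 and 103 TMM CPM in shCtrl and at 118 to 135 in the 6 KD libraries. MDH2 was at 326, 326 and 312 in shCtrl and at 334 to 399.8 in KD. The KD libraries of both genes lay above all shCtrl libraries, as did those of 11.4% of all genes, but the differences (IDH3B 0.22 ± 0.09 SE on the log2 scale, q = 0.098; MDH2 0.19 ± 0.08, q = 0.119) did not pass. In a fit of the 3 lines in which the mean of the hairpins was compared with shCtrl, IDH3B (q = 0.020), MDH2 (q = 0.0077) and SUCLG1 (q = 0.048) passed, with the spread taken from within each hairpin, and 16.5% of all genes were called higher in that fit.

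Each hairpin was then compared with shCtrl in a fit of 3 groups. With sh#1, 2 of the 9 enzymes rose and 0 fell, against 11.8% and 10.6% of all genes. With sh#2, 2 rose and 1 fell, against 19.5% and 18.8%. The median log2 fold change of the 9 was 0.20 with sh#1 and 0.03 with sh#2, against -0.01 over all genes for each. The levels of each enzyme by culture are shown in the plot of TMM CPM in cultured cells.

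**Figure D1:**
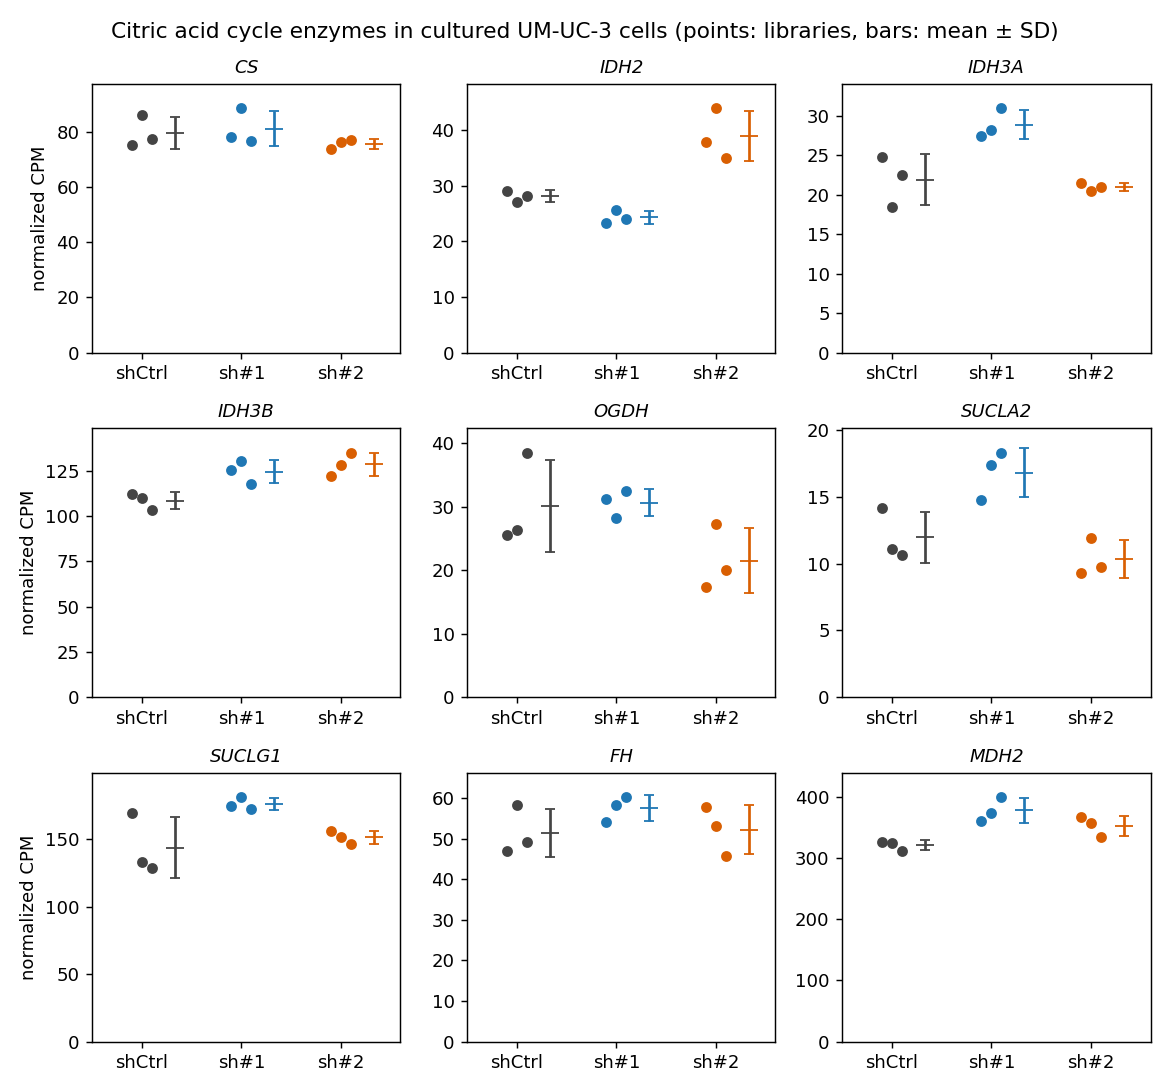
Normalized level (TMM CPM, vertical axis from 0) of the 9 enzymes in each cultured UM-UC-3 library of shCtrl, sh#1 and sh#2, with the mean and SD of the 3 libraries beside the points. IDH2 was highest with sh#2, SUCLA2 and IDH3A were highest with sh#1, and all KD libraries of IDH3B and MDH2 lay above shCtrl.

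CS, which commits acetyl-CoA to the cycle, was at 75.2, 86.1 and 77.4 TMM CPM in shCtrl, 78.3, 88.7 and 76.8 with sh#1 and 73.7, 76.45 and 76.9 with sh#2. The lines overlapped, and the 95% confidence interval of the log2 fold change ran from -0.17 to 0.23 for sh#1 and from -0.28 to 0.14 for sh#2. IDH2, the mitochondrial NADP-dependent isocitrate dehydrogenase, had the clearest difference between the hairpins. It was at 29.1, 27.1 and 28.2 TMM CPM in shCtrl, at 23.4, 25.6 and 23.95 with sh#1 and at 37.8, 43.96 and 35.1 with sh#2. All sh#2 libraries lay above and all sh#1 libraries below shCtrl. IDH2 rose with sh#2 (log2 fold change 0.47 ± 0.15, q = 0.010), and its value with sh#1 was -0.21 ± 0.16 (q = 0.367). The difference of sh#1 from sh#2 was -0.68 ± 0.15 (q = 0.000556) and passed under all 15 alternatives, with values from -0.75 to -0.49. The rise with sh#2 was lost in DESeq2 (q = 0.058), without sh#2 library 2 (0.38, q = 0.082) and with scaling by total counts.

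IDH3 is built of alpha, beta and gamma subunits, and whether the 3 genes differed from each other was not tested. IDH3A, the catalytic alpha subunit, was at 24.8, 18.5 and 22.5 TMM CPM in shCtrl, 27.5, 28.25 and 31.0 with sh#1 and 21.5, 20.5 and 20.9 with sh#2. Every sh#1 library lay above every library of the other lines. The difference from shCtrl (0.40 ± 0.16, q = 0.069) did not pass, and that between the hairpins (0.47 ± 0.17, q = 0.038) passed but was lost in 8 of 15 alternatives, among them DESeq2 and the omission of any single sh#1 or sh#2 library. IDH3B was at 125, 130.4 and 118 TMM CPM with sh#1 and at 122, 128 and 135 with sh#2. It rose with sh#2 (0.24 ± 0.09, q = 0.024), and with sh#1 the value was 0.20 ± 0.09 (q = 0.0995). The call for sh#2 was lost in 6 of 15 alternatives, and under scaling by total counts the value was -0.02. IDH3G, the regulatory gamma subunit and not one of the 9, was at 42.1, 53.3 and 56.8 TMM CPM in shCtrl, 55.8, 66.5 and 52.1 with sh#1 and 109, 100.3 and 95.9 with sh#2. It rose with sh#2 (1.00, q = 2.09e-10) and differed between the hairpins (-0.82, q = 9.28e-08), and both calls held in all 15 alternatives. Counted within each library, which needs no scaling, IDH3G had 0.375 to 0.550 counts per count of IDH3B in shCtrl, 0.443 to 0.510 with sh#1 and 0.711 to 0.893 with sh#2. Per 100 counts of IDH3B, IDH3A had 16.8 to 22.1 in shCtrl, 21.7 to 26.3 with sh#1 and 15.5 to 17.6 with sh#2. The IDH3A ratios of both hairpins overlapped those of shCtrl.

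OGDH, the first component of the oxoglutarate dehydrogenase complex, was at 25.6, 26.2 and 38.5 TMM CPM in shCtrl, 31.2, 28.25 and 32.4 with sh#1 and 17.3, 27.2 and 19.97 with sh#2. It was the 1 enzyme that fell with sh#2 (-0.49 ± 0.18, q = 0.027), although sh#2 library 2 lay above 2 of the shCtrl libraries. Without shCtrl library 3 the value was -0.27 (q = 0.318), without sh#2 library 1 it was -0.35 (q = 0.175), without sh#2 library 3 it was -0.44 (q = 0.096), and DESeq2 gave q = 0.107. With sh#1 the OGDH value was 0.02 ± 0.16. The hairpins differed by 0.52 ± 0.18 (q = 0.029), a call lost in 5 of 15 alternatives.

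SUCLA2 and SUCLG1 encode the ADP-specific beta subunit and the shared alpha subunit of succinate-CoA ligase. SUCLA2 rested on 20 to 52 counts a library and was at 14.2, 11.1 and 10.7 TMM CPM in shCtrl, 14.8, 17.4 and 18.3 with sh#1 and 9.33, 11.95 and 9.74 with sh#2. Its sh#1 libraries lay above all others. The difference between the hairpins (0.70 ± 0.23, q = 0.020) passed, as it did in 10 of 15 alternatives, while the values against shCtrl (sh#1 0.49 ± 0.22, q = 0.095; sh#2 -0.21 ± 0.25, q = 0.533) did not. SUCLG1 was at 169.7, 133 and 129 TMM CPM in shCtrl, 175, 181 and 172 with sh#1 and 156, 152 and 147 with sh#2. SUCLG1 rose with sh#1 (0.29 ± 0.08, q = 0.0076), where shCtrl library 1 came close to the sh#1 libraries. The call was lost without shCtrl library 2 (0.24, q = 0.070) or library 3 (0.22, q = 0.107). With sh#2 the value was 0.08 ± 0.09.

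FH, which hydrates fumarate to malate, was at 46.8, 58.2 and 49.2 TMM CPM in shCtrl, 54.1, 58.2 and 60.2 with sh#1 and 57.9, 53.0 and 45.8 with sh#2. The lines overlapped, with intervals of the log2 fold change from -0.08 to 0.41 for sh#1 and from -0.23 to 0.28 for sh#2. MDH2, the malate dehydrogenase of the cycle, was at 361, 374 and 399.8 TMM CPM with sh#1 and at 367, 357 and 334 with sh#2. MDH2 rose with sh#1 (0.24 ± 0.06, q = 0.0047), and this call held in all 15 alternatives, with values from 0.17 to 0.27. With sh#2 the value was 0.14 ± 0.07 (q = 0.099), and the hairpins differed by 0.10 ± 0.06 (q = 0.271).

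Counted by whether the libraries of a hairpin overlapped those of shCtrl, 5 enzymes lay wholly above shCtrl with sh#1 (IDH3A, IDH3B, SUCLA2, SUCLG1 and MDH2) and 1 wholly below (IDH2), against 17.9% and 17.8% of all genes. With sh#2, 3 lay wholly above (IDH2, IDH3B and MDH2), against 23.7% of all genes. Between the hairpins, 3 enzymes were higher with sh#1 than with sh#2 (IDH3A, OGDH and SUCLA2) and 1 was lower (IDH2) at q under 0.05, against 11.2% and 13.5% of all genes. DESeq2 called IDH2 alone.

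**Figure D2:**
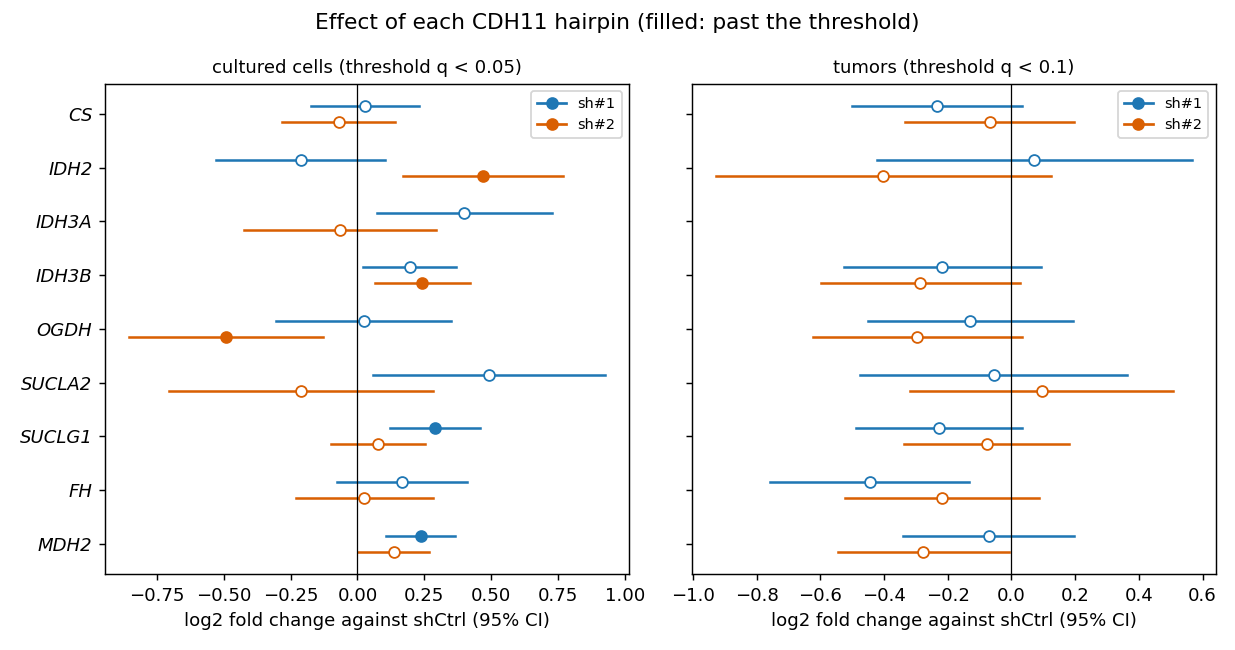
Log2 fold change of each enzyme with sh#1 and sh#2 against shCtrl (points) with 95% confidence intervals (lines), in cultured cells at left and in tumors at right; filled points passed q under 0.05 in cells or 0.1 in tumors. The filled points are SUCLG1 and MDH2 with sh#1 and IDH2, IDH3B and OGDH with sh#2, all in cultured cells; IDH3A had too few counts to be fitted in tumors.

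The direction of the sh#2 values of IDH3B, SUCLG1, FH and MDH2 depended on the scaling. The TMM factors were 1.07 to 1.08 in shCtrl, 1.02 to 1.04 with sh#1 and 0.897 to 0.905 with sh#2. As a share of all counts, the 9 enzymes summed to 0.0830 to 0.0890% in shCtrl, 0.0925 to 0.0953% with sh#1 and 0.0736 to 0.0782% with sh#2, and these ranges did not overlap. When libraries were scaled by total counts alone, the median log2 fold change of all genes with sh#2 moved to -0.26 and that of the 9 enzymes to -0.23. Then OGDH (-0.75, q = 6.19e-04) and CS (-0.33, q = 0.0083) were lower with sh#2 and 0 enzymes were higher, against 36.9% and 9.7% of all genes. Relative to the median of all genes under that scaling, with sh#2 IDH2 stood at 0.47, IDH3B at 0.25, MDH2 at 0.14, SUCLG1 at 0.08 and FH at 0.03. OGDH stood at -0.49, SUCLA2 at -0.20, CS at -0.06 and IDH3A at -0.06. Relative to that median, all 9 had the direction they had after TMM scaling. TMM scaling had already set the median of all genes near 0 (-0.01), so this is no separate check of the directions. With sh#1 the median of all genes moved to -0.08, and SUCLG1 (0.22, q = 0.049) and MDH2 (0.17, q = 0.048) still passed, as did 8.68% of all genes in that direction. Between the hairpins, scaling by total counts raised the number of enzymes higher with sh#1 to 7, where 25.4% of all genes were called higher and the median of all genes was 0.20.

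**Figure D3:**
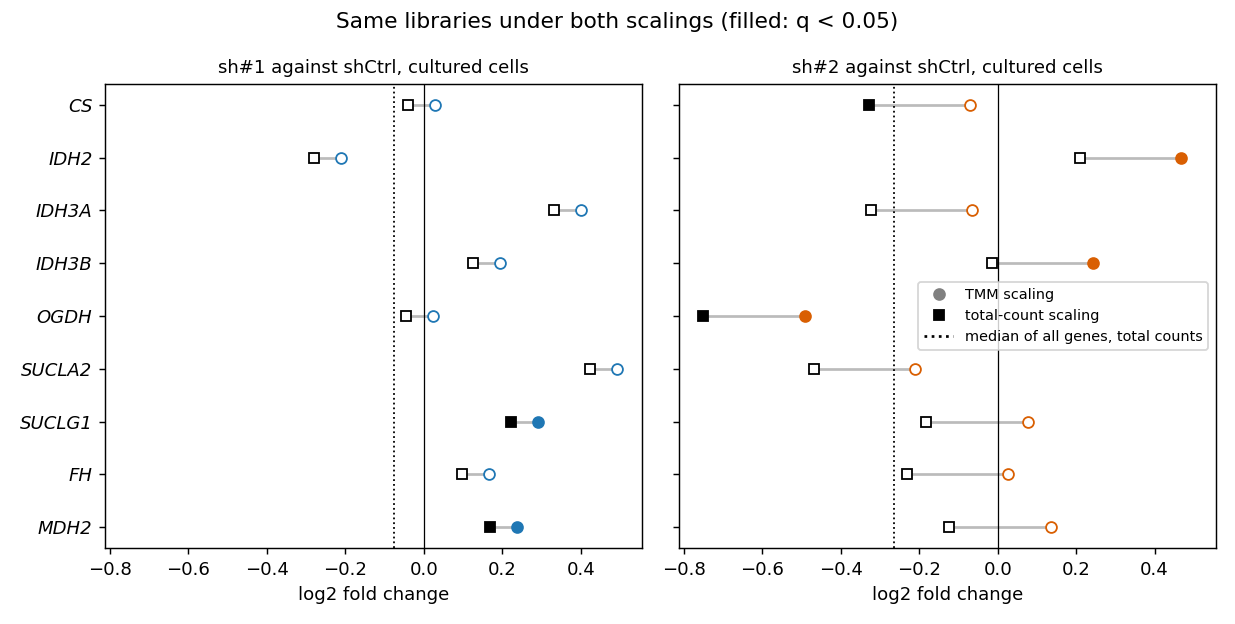
Log2 fold change of each enzyme in cultured cells with sh#1 (left) and sh#2 (right) against shCtrl, after TMM scaling (circles) and after scaling by total counts (squares); filled symbols passed q under 0.05 and the dotted line is the median of all genes under total counts. The shift is small with sh#1, and with sh#2 it moves IDH3B, SUCLG1, FH and MDH2 from above to below 0.

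In tumors, the question was the same for human transcripts of cells that had grown in the mouse. The levels are relative to all human counts, so they measure neither the number of tumor cells in a sample nor the RNA per cell. IDH3A gave 2, 4, 4, 3 and 2 counts in shCtrl tumors, 0, 1, 2, 2 and 2 with sh#1 and 1, 1, 2, 2 and 1 with sh#2, and did not pass the filter on low counts. In shCtrl cultures the same gene had 63, 45 and 59 counts. The other 8 enzymes were tested, and 0 passed q under 0.1 with KD, where 1.51% of 9184 genes did, and 0 with sh#1 (1.48%), sh#2 (2.68%) or between the hairpins (1.19%). With KD 1 of the 8 had an unadjusted p under 0.05, as had 12.7% of all genes, and DESeq2 called 0. The log2 fold changes with KD were negative for 7 of the 8, with a median of -0.16 against 0.01 over all genes tested.

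**Figure D4:**
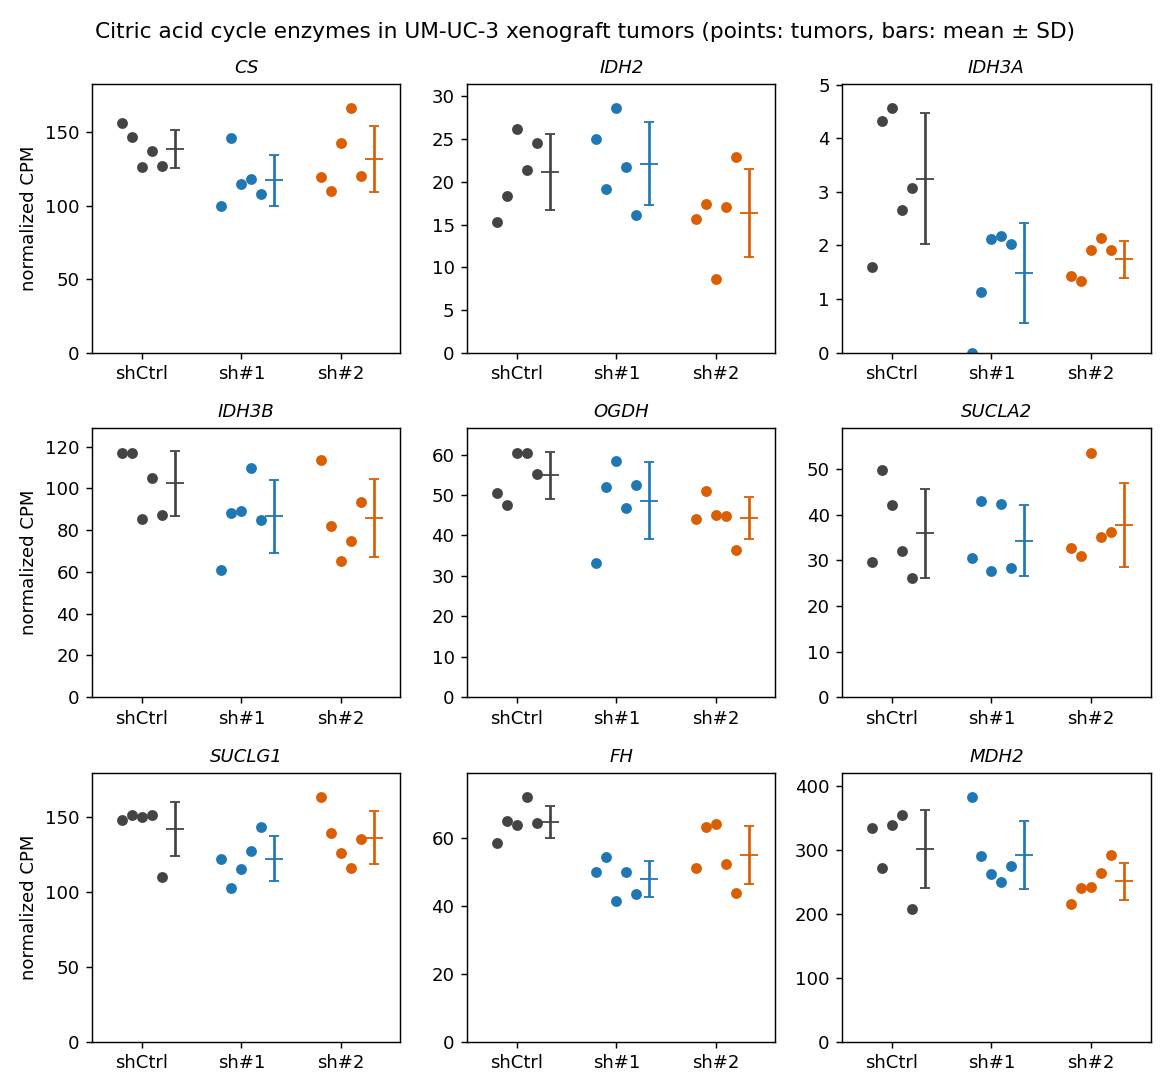
Normalized level (TMM CPM, vertical axis from 0) of the 9 enzymes in each of 5 shCtrl, 5 sh#1 and 5 sh#2 tumors, with the mean and SD of each line beside the points. The sh#1 tumors lay below all shCtrl tumors for FH, the other lines overlapped, and IDH3A stayed below 5 CPM throughout.

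FH had the lowest p of the 8 in tumors. It was at 58.6, 64.9, 63.9, 72.0 and 64.3 TMM CPM in shCtrl tumors, at 49.95, 54.3, 41.4, 50.02 and 43.4 with sh#1 and at 51.2, 63.1, 64.2, 52.3 and 43.9 with sh#2. All sh#1 tumors lay below all shCtrl tumors, as for 1.13% of genes, and 0 of the 10 KD tumors lay above the shCtrl mean, which held for 4.19% of all genes tested. The KD value of FH was -0.33 ± 0.13 (edgeR adjusted p = 0.285), with an interval from -0.59 to -0.06, and its sh#1 value was -0.44 ± 0.15 (edgeR adjusted p = 0.194). Neither passed the threshold, and 0 of the alternatives called either.

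MDH2 was at 334, 273, 339, 355 and 208 TMM CPM in shCtrl tumors, 383, 290.5, 263, 250.1 and 276 with sh#1 and 216, 240.5, 242, 264 and 292 with sh#2. The shCtrl tumors spanned almost the whole range. The MDH2 value with sh#2 was -0.28 ± 0.13 (q = 0.347), and without shCtrl tumor 5 it was -0.39 and passed (q = 0.065). IDH3B was at 85.5 to 117 TMM CPM in shCtrl tumors and 61.04 to 114 in KD tumors, with a KD value of -0.25 ± 0.13 (q = 0.432). OGDH was at 47.6 to 60.5 in shCtrl and 33.3 to 58.3 in KD (-0.21 ± 0.14, q = 0.553). For both, the lines overlapped.

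CS (-0.15 ± 0.11), SUCLG1 (-0.15 ± 0.11) and IDH2 (-0.14 ± 0.22) had KD values in tumors with 95% confidence intervals that included 0, and so did the interval of SUCLA2 (0.02 ± 0.18). CS was at 127 to 156 TMM CPM in shCtrl tumors, 99.9 to 146 with sh#1 and 110.2 to 166 with sh#2, and SUCLA2 was at 26.0 to 49.8, 27.6 to 43.0 and 30.9 to 53.6. SUCLG1 was at 148 to 151 TMM CPM in 4 of the shCtrl tumors and at 110.3 in shCtrl tumor 5. IDH2, which rose with sh#2 in culture, was at 15.25 to 26.2 in shCtrl tumors, 16.2 to 28.6 with sh#1 and 8.62 to 22.9 with sh#2; its value with sh#2 was -0.40, with an interval from -0.93 to 0.12. Summed over the mouse counterparts of the 9 enzymes, mouse reads made up 30.6% of human and mouse enzyme reads in sh#1 tumor 1 and 3.15 to 12.0% in the other 14 tumors. With each tumor's mouse to human ratio as a covariate, 0 of the 8 enzymes passed.

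The KD effect was compared between cultures and tumors in 1 fit over 9594 genes. None of the 9 enzymes differed at q under 0.05, where 6.59% of genes did, and 4 had an unadjusted p under 0.05, as had 21.4% of genes. DESeq2 called 1, IDH3B. IDH3A had too few counts to be tested in tumors alone and passed the filter of this fit through its counts in cultures. The differences of the 8 other enzymes, KD effect in cells minus KD effect in tumors, were above 0. That of OGDH (0.02) changed sign in 10 of 28 alternatives. Under scaling by total counts the differences of CS (-0.02) and OGDH (-0.13) were below 0. IDH3B had the largest of the 8 enzymes with more than a few counts in tumors: its KD value was 0.23 in cells and -0.26 in tumors, and the difference was 0.49 ± 0.17 (q = 0.081). It passed in DESeq2 (q = 0.033) and without shCtrl tumor 5 (q = 0.044). FH differed by 0.44 ± 0.18 (q = 0.140), MDH2 by 0.37 ± 0.17 (q = 0.175) and SUCLG1 by 0.36 ± 0.16 (q = 0.179), and MDH2 passed without shCtrl tumor 5 (q = 0.041). Under scaling by total counts the difference was 0.32 for IDH3B (q = 0.310), with a median of all genes of -0.17. The cultured and tumor libraries were sequenced on different instruments and mapped with different programs, and only the difference of the KD effects was tested.

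Around the 9 enzymes, other genes of the pathway were described from lists. Of the other 9 cycle subunits, 0 passed with KD in cells and 0 in tumors, against 17.4% and 1.51% of all genes. With sh#1 SDHB, the iron-sulfur subunit of succinate dehydrogenase, rose (0.27, q = 0.034), and with sh#2 IDH3G rose, against 11.8% and 19.5% of all genes. Between the hairpins DLD, the dehydrogenase shared by the 2-oxoacid complexes, SDHB and SDHD were higher with sh#1 (0.33 to 0.44), and IDH3G was lower. Of all genes, 11.2% were called higher and 13.5% lower in that comparison. DLST, SUCLG2, SDHA and SDHC had KD values from -0.02 to 0.13 in cells and did not pass. Of the 4 counterparts outside the mitochondrial matrix, MDH1, the cytosolic malate dehydrogenase, rose with sh#1 (0.21, q = 0.044) and with sh#2 (0.26, q = 0.0073), while IDH1 had a KD value of -0.24 (q = 0.217). Under total counts the MDH1 value with sh#2 was 0.00. ACLY, which cleaves cytosolic citrate, also rose with sh#2 (0.29, q = 0.0078) and was lower with sh#1 than with sh#2 (-0.26, q = 0.031). ACLY, and PDP2, PDK3 and the carriers below, were named after their values were seen.

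Pyruvate dehydrogenase, its kinases and the enzymes that refill the cycle supply its substrates. With KD in cells, 2 of 12 genes of pyruvate entry tested rose and 0 fell, against 9.12% and 8.32% of all genes. With sh#2 alone 3 rose (PDK1, PDHA1 and PDK3) and PDP2, a phosphatase of pyruvate dehydrogenase, fell (-0.77, q = 0.0060), against 19.5% and 18.8% of all genes. PDK3, another kinase of pyruvate dehydrogenase, was at 0.85 with sh#2 (q = 4.06e-05) and at -0.18 with sh#1 (q = 0.528). It was lower with sh#1 than with sh#2 (-1.04, q = 4.38e-06). PDK1, a kinase that shuts off pyruvate dehydrogenase, was at 83.1, 83.2 and 85.0 TMM CPM in shCtrl, 121, 130.4 and 122 with sh#1 and 221, 234 and 204 with sh#2. The 3 lines did not overlap, and the KD value was 1.03 (q = 0.021). PDHA1, a catalytic subunit of pyruvate dehydrogenase, was at 88.6 to 97.2 in shCtrl and 108 to 130 in KD (0.32, q = 0.031); under total counts it was 0.16 (q = 0.366). Of 10 genes of anaplerosis and glutamine use, 2 rose and 0 fell with KD in cells, against the same 9.12% and 8.32%. GPT2, the mitochondrial alanine transaminase, rose from 16.0 to 23.2 in shCtrl to 39.8 to 59.7 in KD (1.21, q = 9.88e-05), and PCK2, the mitochondrial phosphoenolpyruvate carboxykinase, from 9.02 to 10.7 to 13.0 to 27.8 (1.01, q = 0.0057). The GPT2 and PCK2 calls held in all 16 alternatives, and that of PDK1 held in 13 of 16 and was lost without any 1 of the shCtrl libraries. Of 5 carriers of cycle intermediates, 0 passed with KD in cells, against 17.4% of all genes. SLC25A1, the citrate carrier, fell with sh#1 (-0.35, q = 0.026) and SLC25A13, an aspartate-glutamate carrier, fell with sh#2 (-0.73, q = 7.38e-05), against 10.6% and 18.8% of all genes. Between the hairpins SLC25A12 (0.99) and SLC25A13 (0.48) were higher and SLC25A1 (-0.40) was lower with sh#1, against 11.2% and 13.5% of all genes. In tumors 0 genes of these lists passed with KD, against 1.51% of all genes. The KD values there were 0.43 for PDK1 (q = 0.473), 0.03 for PDHA1, 0.20 for GPT2 and -0.16 for PCK2. The KD effect of GPT2 differed between cells and tumors by 1.02 (q = 0.034) and that of PCK2 by 1.19 (q = 0.042), and both missed the threshold under total counts (q = 0.072 and q = 0.078).

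**Figure D5:**
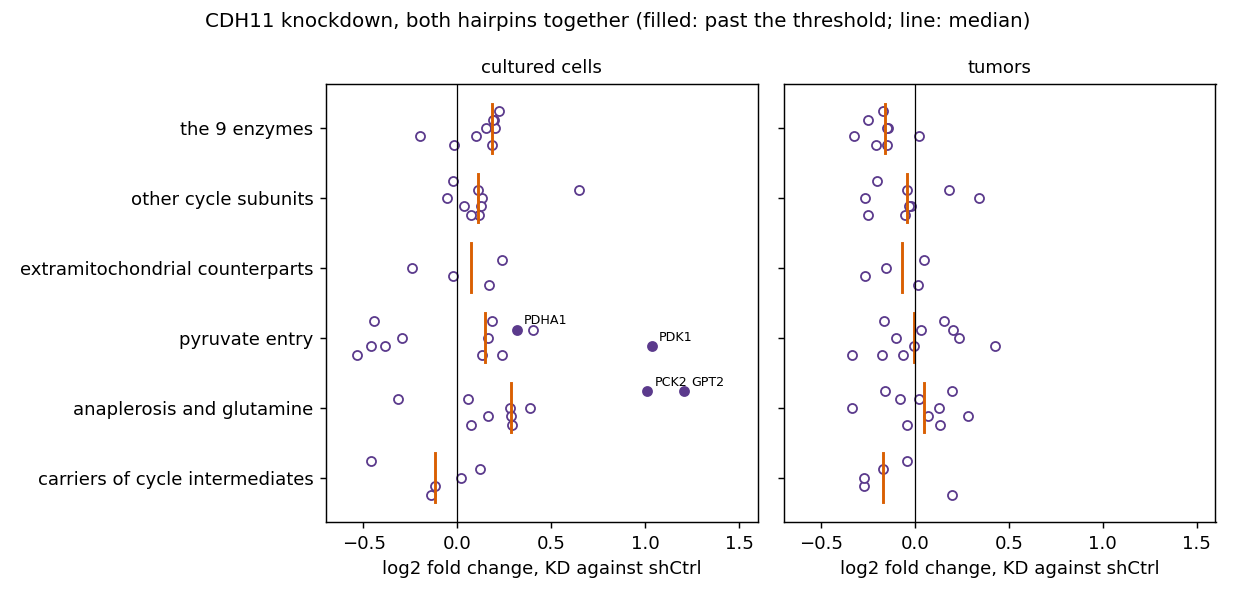
Log2 fold change with KD against shCtrl (horizontal axis) of the tested genes in each list, 1 point a gene, in cultured cells at left and tumors at right; filled points passed the threshold and vertical lines are list medians. The 9 enzymes lay near 0 in both systems, with a median of 0.19 in cells and -0.16 in tumors, and the 4 filled points are PDK1, PDHA1, GPT2 and PCK2 in cells.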

How the data were processed

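Per the study's methods, reads were mapped to hg38, with trimming in CLC Genomics Workbench and mapping in RaNAseq for cultured cells and with Trim Galore and HISAT2 for tumors. The program that counted reads, the annotation and the way human and mouse reads were separated are not given in the sources used here, and how these bear on the counts was not tested. The authors deposited raw counts per gene for 9 cultures and, separately for human and mouse genes, for 15 tumors. For cultured cells, 13 genes without values were left out, none of them among the 9 enzymes.

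Genes were filtered with filterByExpr and tested in edgeR 4.0.16 (R 4.3.3) by the robust quasi-likelihood test after TMM scaling, with Benjamini-Hochberg adjustment over all genes tested (q). The q threshold was 0.05 in cells and 0.1 in tumors, the limits of the study, whose additional fold limit in cells was not applied, and 0.05 for the interaction. DESeq2 1.42.0 was an alternative, with other scalings and filters, a replicate block and the omission of each library. The fits were run on simulated counts with each fold change set alike in all libraries of the changed group. Differences between the hairpins within KD were thus not simulated, and the outcome is not reported here. The SE is the log2 fold change over the square root of F, and intervals are at 95%. Scaling by total counts was added after the data were seen. The 9 enzymes, the gene lists and the naming rule (all 9, their partners in a reaction, CDH11, list genes past the threshold with KD, and the nearest genes by correlation of any enzyme past it with KD, of which there was none) were chosen with earlier results of these data known. Positions and promoter windows are from GENCODE and RefSeq on hg38. Of the other cycle subunits, 1 gene that the naming rule covers is not reported here by name.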

Additional observations from a re-analysis of the deposited data

Results flagged for a closer look

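In groups of 5 tumors, 33 sets of values were tested for 1 sample that stood apart by Dixon's criterion, of which chance flags about 1 in 20, and 4 met it. SUCLA2 in sh#2 tumor 3 was at 53.6 TMM CPM, with the next at 36.3. SUCLG1 in shCtrl tumor 5 was at 110.3 TMM CPM, with the next at 148. Tumor 1 of sh#1 had 414849 human counts, and the next of its line had 895180. The mouse share of enzyme reads in the same tumor was 30.6%, with the next at 7.43%.

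The effect of the hairpins differed by a test of the difference itself for 4 enzymes in cultured cells. The difference of sh#1 from sh#2 was -0.68 for IDH2, 0.47 for IDH3A, 0.52 for OGDH and 0.70 for SUCLA2 on the log2 scale. Beside these, the TMM factors also differed between the hairpins, and their part in the differences was not tested. Under total counts all 4 kept their sign and passed, but the median of all genes was 0.20 and 25.4% of them were called higher. DESeq2 lost the calls of IDH3A (q = 0.158), OGDH (q = 0.124) and SUCLA2 (q = 0.103), as did the omission of some single libraries. The call of IDH2 held in all 15 alternatives.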

How the results depend on the processing

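Of 1911 values recomputed under alternatives for 99 results, 1761 kept their direction, their side of the threshold or their size, 32 lost and 17 gained a call, 52 changed sign and 49 counts moved by over 1.5 times. The cause was not tested, apart from fewer samples where a library was left out. At 20 to 52 counts a cultured library for SUCLA2 and 0 to 4 counts a tumor for IDH3A, small differences were not detectable at this depth.

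With KD in cells, the fit of 3 groups called 1630 genes higher and 1661 lower, with 3 of the enzymes higher, and total counts, a scaling chosen after seeing the data, gave 517 and 1377, with FH at -0.058 and IDH2 at -0.017. Under total counts the sh#1 values of CS and OGDH were -0.041 and -0.045, and the sh#2 values were -0.23 for FH, -0.015 for IDH3B, -0.12 for MDH2 and -0.18 for SUCLG1, with 0 enzymes higher and 2 lower. IDH3B stood at 0.14 between the hairpins, where 7 enzymes were higher, the difference of cells from tumors was -0.019 for CS and -0.13 for OGDH, and in tumors 114 genes were lower with KD and SUCLA2 was at -0.0099. DESeq2 called 0 enzymes higher between the hairpins, 0 higher and 0 lower with sh#2, and 1 in the difference of cells from tumors. With upper-quartile scaling OGDH with sh#1 was at -0.00031, FH with sh#2 at -0.014, OGDH in the difference at -0.0069, and 1 enzyme was higher with sh#2. In tumors with KD, the fit of 3 groups called 97 genes higher and 130 lower, no filter 110 and 166, and the mouse ratio as covariate 24 and 39, with SUCLA2 at -0.0088 without the filter and -0.035 with the covariate.

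Leaving out 1 library at a time, in cells with KD CS ran from -0.058 to 0.042, OGDH from -0.31 to 0.019, and the genes called from 458 to 972 higher and 424 to 901 lower. With sh#1 CS ran from -0.031 to 0.088, OGDH from -0.083 to 0.25 and the enzymes higher from 1 to 2, and with sh#2 FH ran from -0.051 to 0.12, IDH3A from -0.17 to 0.032, the enzymes higher from 0 to 2 and lower from 0 to 1. Between the hairpins 0 to 4 enzymes were higher. In tumors with KD SUCLA2 ran from -0.071 to 0.16 and the genes called from 21 to 197 higher and 27 to 202 lower. With sh#1 IDH2 ran from -0.064 to 0.18 and SUCLA2 from -0.16 to 0.085, and with sh#2 SUCLA2 from -0.10 to 0.24 and the enzymes lower from 0 to 1. Between the hairpins IDH3B ran from -0.025 to 0.19 and SUCLA2 from -0.24 to 0.043. The difference of cells from tumors ran from -0.091 to 0.23 for OGDH, with 0 to 2 enzymes higher.

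The labels do not say whether equal replicate numbers pair samples of different lines. Deviations of log2 CPM from line means were correlated over genes between cultures. Between shCtrl and KD cultures the correlation was 0.014 to 0.055 for equal numbers and -0.055 to 0.019 for unequal ones. Between sh#1 and sh#2 it was -0.0051 to 0.021 and -0.041 to 0.044. With a replicate block, 648 genes were higher and 598 lower with KD in cells, against 899 and 820 without it, and SUCLG1 between the hairpins passed (q = 0.047).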
